A study of Homo sapiens with 6 samples.

Results

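Severe heat was examined here as the difference between 44 °C and 37 °C in the A549 cell line, which was established from a human lung adenocarcinoma. The comparison used 4 of the 6 arrays of the study, chosen by their labels: HT 44 and IR_HT 44, both heated at 44 °C for 1 h, against the control and IR arrays, both kept at 37 °C. It covered all 14884 genes with a platform symbol. All cells first grew for 24 h at 37 °C. HT 44 cells were heated and then returned to 37 °C for 3 h. IR cells received 3 Gy of X-rays and had 3 h at 37 °C, and IR_HT 44 cells were irradiated with 3 Gy right after the heat, with the time until harvest not given. The control received no treatment, and how long it was kept after those 24 h is not given. Each group is 1 array, so the arrays were paired by radiation dose: HT 44 with the control, and IR_HT 44 with IR. The remaining 2 arrays, HT 41.5 and IR_HT 41.5, served only to estimate the spread. Whether the arrays stem from separate cultures is not given, so the spread that the p-values measure is that of these arrays and may be technical. Time in culture and heat cannot be told apart in the pair of HT 44 and the control. In the other pair, IR_HT 44 had 1 h of heat that IR lacked, and its time until harvest is not given. Time in culture or since irradiation and heat therefore cannot be told apart there either.

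Heat unfolds proteins. In the textbook account, unfolded proteins draw chaperones away from heat shock factor 1, which then binds short repeated elements in the promoters of chaperone genes and raises their transcription. Strong heat also activates stress kinases and immediate early genes, slows ribosome production, and halts splicing and the transcription of many other genes, while the cell cycle pauses.

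The 11 measured markers of the A549 epithelium had 0 called genes in limma, 2 of them at an unadjusted p under 0.05. Over all genes, 3054 of 14884 were under that unadjusted p. KRT18, a keratin of simple epithelia, lay between 11.43 and 11.59 (log2 level) in the 4 arrays and VIM, an intermediate filament of mesenchymal and cultured cells, between 8.42 and 8.53. The alveolar surfactant gene SFTPA1 lay between 3.38 and 3.52, well below the median gene (5.39 to 5.41). Of the other cell types, 3 leukocyte, 4 endothelial and 3 fibroblast markers were measured, with median levels of 5.36 to 5.81, 3.62 to 4.01 and 2.62 to 2.99. One of them was called: CD68, a lysosomal protein of macrophages, rose by 0.68 ± 0.08, a call lost without IR (adjusted p = 0.0523 in limma). The monocyte gene CD14 read 5.36 and 5.47 at 37 °C and 5.77 and 5.81 at 44 °C without passing (adjusted p = 0.120 in limma), so that both 44 °C arrays were higher for CD68 and CD14. LYZ, a leukocyte gene, lay between 2.78 and 3.11 with overlapping groups.

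A gene was called when its adjusted p in limma was under 0.05 over all genes and both pairs moved the same way. Differences are log2 values ± SE, with 2 arrays at each temperature. Of 14884 genes, 532 rose (3.57%) and 378 fell (2.54%). Both directions together made up 6.11%. At a fixed size with no test, 326 genes were at least 1.5-fold higher at 44 °C in both pairs (2.19%) and 97 at least 1.5-fold lower (0.652%). At 2-fold these were 132 and 17. Large differences were mostly rises, whereas small shifts leaned down: both 44 °C arrays lay above both 37 °C arrays for 19.9% of genes and below for 31.2%, and the median difference over all genes was -0.04. The counts of calls rest on every array. Without the control array there were 233 rises and 30 falls, without IR 210 and 61, without HT 44 446 and 213, and without IR_HT 44 376 and 296. The balance moved with the scaling: after another quantile normalization 486 genes rose and 599 fell, so that rises were 44.8% of the calls in place of 58.5%, and median centring gave 467 and 538 (46.5%). These scalings moved the median of all genes to -0.07 and -0.09.

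**Figure D1:**
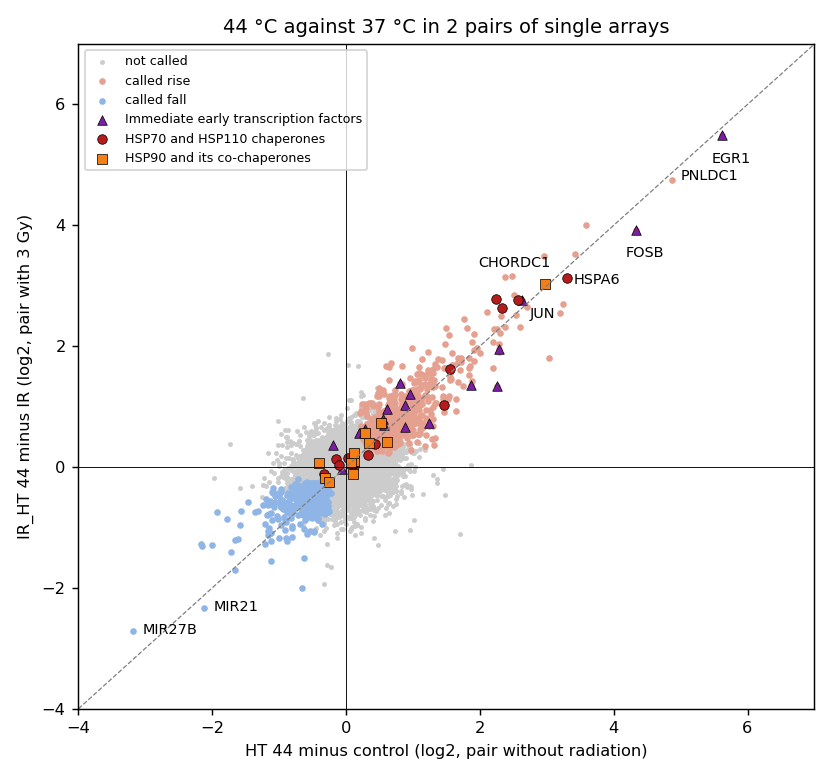
Each point is 1 gene, with the log2 difference of HT 44 and the control on the x axis and of IR_HT 44 and IR on the y axis. Called rises are light red, called falls light blue and uncalled genes grey, and 3 gene lists are marked in darker colours. The dashed line marks equal differences in both pairs. Several members of the immediate early list (5.55 for EGR1) and of the chaperone lists lie far to the upper right, and MIR27B (-2.95) and MIR21 (-2.23) lie furthest to the lower left.

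Functional groups were read from 127 gene lists, of which 108 had at least 5 measured members. A list is described when at least 3 members were called in 1 direction and their share was at least 2 times that of all genes. By that rule 18 lists are described for rises and 7 for falls, with 1 list in both counts. The shares are descriptions: they were not tested, and nothing in them is particular to a list. Several families had 0 genes in the annotated set and are not analysed here, among them the DNAJ co-chaperones, proteasome subunits and histones. Other lists were measured only in part. Examples are 12 of 21 HSP90 and co-chaperone genes, 6 of 15 chaperonin and prefoldin genes and 13 of 21 integrated stress response genes. Counts and shares refer to measured members.

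**Figure D2:**
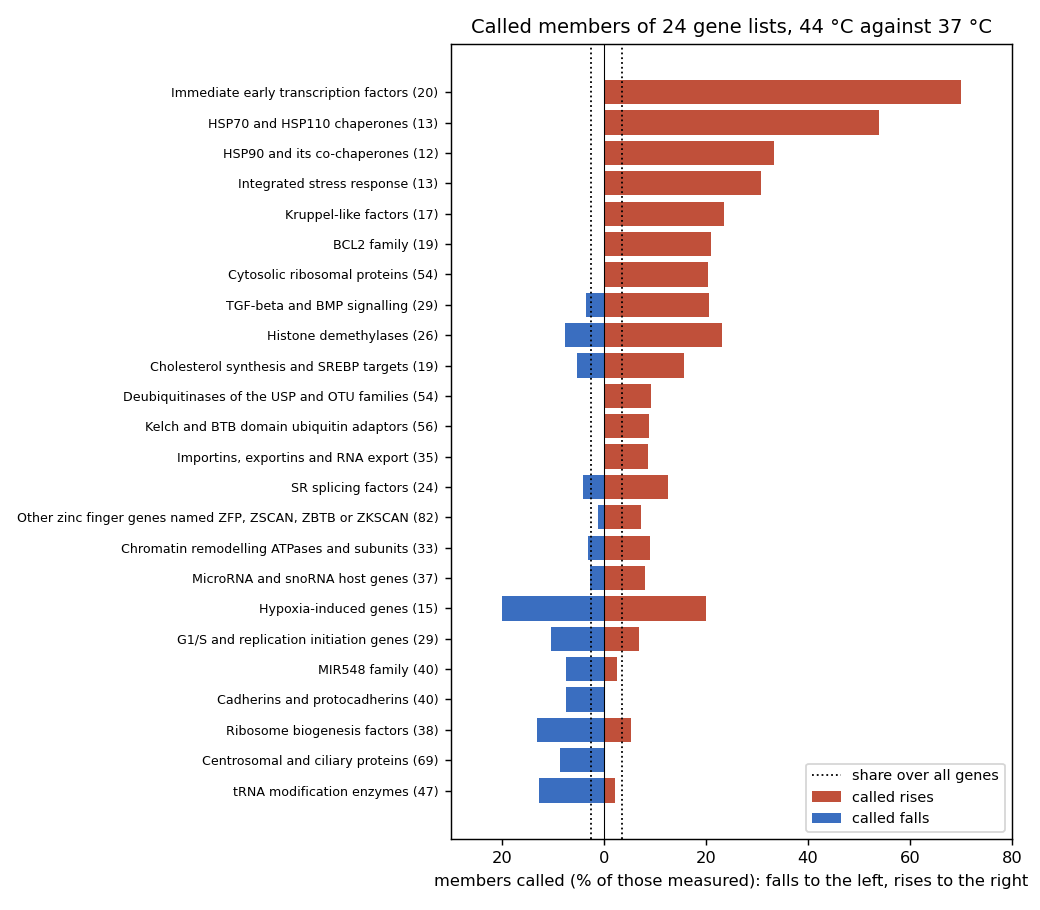
Bars give the share of measured members called, in percent, with rises to the right (red) and falls to the left (blue). The number after each name is the count of measured members. Dotted lines mark the shares over all genes, 3.57% for rises and 2.54% for falls. The immediate early list reaches 70.0% and the HSP70 and HSP110 list 53.8%, and centrosomal genes, cadherins, tRNA modification enzymes and ribosome biogenesis factors extend mainly to the left.

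Chaperones of the HSP70 and HSP110 families, which hold unfolded chains and help them refold, were the protein folding genes with the most rises. Of 13 measured, 7 rose and 0 fell, with a median of 0.40 against -0.04 over all genes, and 6 or 7 rose with 1 of the 4 arrays removed. HSPA6, a strictly inducible HSP70, read 4.42 in the control and 4.38 in IR, against 7.71 in HT 44 and 7.50 in IR_HT 44. HSPA1B, the main inducible HSP70, read 10.14 and 9.95 at 37 °C and 12.71 and 12.72 at 44 °C. HSPA1A read 10.38 and 10.11, then 12.71 and 12.74. The 44 °C arrays were far above the 37 °C arrays in all of these, and the HSPA1A and HSPA1B signals nearly coincided at 44 °C. Near-identical genes can share probe signal, which was not tested. HSPA1L, next to them on chromosome 6, rose 5.70-fold. The HSP110 gene HSPH1, a nucleotide exchange factor of HSP70, rose by 1.59 and its relative HSPA4L by 1.25, and HSPA2 rose by 0.40, a call lost without the control, IR or HT 44 arrays (adjusted p up to 0.227 in limma). Members that serve other compartments or constant needs did not pass: HSPA9 of mitochondria differed by 0.07, HYOU1 of the endoplasmic reticulum by -0.03 and HSPA12A, furthest the other way, by -0.22.

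HSP90 and its co-chaperones, which mature kinases and receptors, had 4 rises among 12 and 0 falls, with a median of 0.14. CHORDC1, an HSP90 partner, read 6.36 and 6.50 at 37 °C and 9.33 and 9.53 at 44 °C, an 8.01-fold difference (adjusted p = 4.8e-08 in limma). The other 3 moved far less. STIP1, which hands clients from HSP70 to HSP90, rose by 0.63 ± 0.09. PTGES3, the p23 co-chaperone, rose by 0.51 ± 0.08, and PPID, a prolyl isomerase on HSP90, by 0.37 ± 0.08. These smaller calls leaned on the 37 °C arrays, with 1 rise in the list left without the control and 2 without IR. UNC45A, a myosin chaperone, was furthest the other way at -0.25 and not called.

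The other folding lists had between 0 and 2 rises each. BAG3, which links HSP70 to autophagy, read 7.20 and 6.85 at 37 °C and 9.31 and 9.42 at 44 °C, and was the single riser of 5 BAG genes, whose median was -0.03. BAG2 differed by -0.16 and was not called. Of 4 small heat shock proteins, which bind unfolded chains without ATP, HSPB1 rose by 0.81 ± 0.07 and HSPB8, the partner of BAG3, by 0.85 ± 0.21. The HSPB8 call was lost without IR, HT 44 or IR_HT 44 (adjusted p up to 0.336 in limma), and HSPB3 differed by 0.14. HSPD1, the mitochondrial HSP60, rose by 0.69 ± 0.08 as the single riser of 10 mitochondrial chaperones and proteases, of which TRAP1 was furthest down at -0.25. Of 6 cytosolic chaperonin and prefoldin genes 0 were called in limma and 1 had an unadjusted p under 0.05, with PFDN2 furthest down at -0.22. Of 5 genes of heat shock factors and their binding proteins 0 were likewise called and 1 had an unadjusted p under 0.05, with HSF1 at -0.13. Over all genes, 3054 of 14884 were under that unadjusted p.

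Promoters from RefSeq (GRCh38.p14), 250 bases before to 50 after each annotated start, were matched to 9707 of the 11916 measured coding genes and searched on both strands. The heat shock element was taken as 3 alternating units, GAANNTTCNNGAA or TTCNNGAANNTTC. It was found in 54 of these genes (0.556%), in 7 of 359 rises (1.95%) and in 1 of 243 falls (0.412%), which was IL18BP (-0.82), an inhibitor of the cytokine IL-18, a call lost without the control. The element was in 7 of 203 genes at least 1.5-fold higher in both pairs (3.45%) and in 1 of 37 at least 1.5-fold lower (2.70%). The 7 rises were also the 7 highest signed differences among the 54 genes. The uncalled genes with a match ranged from -0.59 (GLI2) to 0.37 (PHF8). The median difference of the 54 was -0.01, so most genes with a match differed little. The following stretches show where the match lies in a strictly inducible HSP70, an HSP90 partner, a mitochondrial chaperone and genes outside the folding lists, with the matched bases in capitals.
HSPA6, chr1:161524446-161524498, plus strand: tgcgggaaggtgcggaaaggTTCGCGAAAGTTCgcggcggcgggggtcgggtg
CHORDC1, chr11:90223067-90223129, minus strand: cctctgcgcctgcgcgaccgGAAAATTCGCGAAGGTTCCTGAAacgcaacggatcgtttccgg
HSPD1, chr2:197500048-197500090, minus strand: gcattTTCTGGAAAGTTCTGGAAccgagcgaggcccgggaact
TMEM95, chr17:7355083-7355140, plus strand: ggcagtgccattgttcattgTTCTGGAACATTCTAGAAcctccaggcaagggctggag
FBXW10, chr17:18743813-18743865, plus strand: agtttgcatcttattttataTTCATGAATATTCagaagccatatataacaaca
ABHD3, chr18:21704887-21704939, minus strand: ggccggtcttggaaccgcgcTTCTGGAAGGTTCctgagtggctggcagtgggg

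CHORDC1 held 3 overlapping matches, between 60 and 38 bases before its start, and TMEM95 and HSPD1 held 2 each. HSPA6 held 1, 74 to 62 bases before the start. FBXW10, an F-box protein of ubiquitin ligases, read 4.91 and 4.74 at 37 °C and 7.62 and 7.38 at 44 °C. Its copy FBXW10B has the same bases in this stretch and rose by 1.83 ± 0.15, and the copies may share probe signal. TMEM95, a sperm membrane protein, read 3.31 and 3.46 at 37 °C and 4.95 and 4.60 at 44 °C, a call lost without the control (adjusted p = 0.0555 in limma). ABHD3, a phospholipase, rose by 0.86 ± 0.09. Within the folding lists, 3 of 45 genes with a promoter held the element, HSPA6, CHORDC1 and HSPD1. A match is no proof of binding, and its lack in this window says nothing of the factor, whose elements also lie further out.

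Of 15 motifs counted in the same windows, several others bind factors of the immediate early list. The AP-1 site (TGACTCA or TGAGTCA), bound by JUN and FOS dimers, was in 5.25% of all genes, 8.91% of rises and 11.8% of the genes at least 1.5-fold higher in both pairs. The cyclic AMP response element (TGACGTCA), bound by CREB and ATF factors, was in 3.13%, 4.74% and 6.90%. Among falls the AP-1 site was in 2.88% and the cyclic AMP response element in 4.12%, close to its share in rises, and among the 37 matched genes at least 1.5-fold lower they were in 8.11% and 2.70%. The sites of SRF and MYC, also in the list, stood nearer the share of all genes. The CArG box (CC and GG around 6 A or T bases), bound by SRF, was in 1.80% of all genes and 2.23% of rises. It was in 1.48% of the genes at least 1.5-fold higher and 1.2% of falls. The E-box (CACGTG), bound by MYC, was in 11.3%, 12.3%, 12.8% and 10.7% in the same order. A looser heat shock form of 2 units (GAANNTTC or TTCNNGAA) was in 14.6% of all genes, 17.3% of rises and 14.8% of falls. It was in 19.7% of the genes at least 1.5-fold higher and in 29.7% of the 37 at least 1.5-fold lower. These shares carry no test.

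Immediate early transcription factors, which need no new protein to be switched on, had the highest share of rises of the described lists. Of 20 measured, 14 rose and 0 fell, with a median of 0.87, and 10 to 15 rose with any 1 of the 4 arrays left out. EGR1 read 5.26 and 5.36 at 37 °C and 10.88 and 10.85 at 44 °C. FOSB read 5.32 and 5.60, then 9.65 and 9.52. The AP-1 subunit JUN read 6.32 and 6.22, then 8.95 and 8.98. The 44 °C arrays lay close together and far above both 37 °C arrays for each of these genes. FOS rose by 2.12 ± 0.12. The stress repressor ATF3 read 4.58 in the control, 5.55 in IR, 6.84 in HT 44 and 6.89 in IR_HT 44: its 37 °C arrays stood further apart than its 44 °C arrays, and the groups did not overlap. IER5, which binds heat shock factor 1, rose by 1.61 ± 0.13. IER3 differed by -0.05 and was not called. MYC, a growth regulator often listed with these genes, differed by 0.09 and was not called either.

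Kruppel-like factors overlap with that list through KLF10 and KLF4. Of 17 measured, 4 rose and 0 fell, with a median of 0.10, and 2 rose without IR. KLF11, a repressor induced by TGF-beta, read 6.16 and 6.21 at 37 °C and 8.53 in both 44 °C arrays. KLF10, its close relative, read 8.54 and 8.02, then 9.35 and 9.41. KLF4 rose by 0.96 ± 0.12, a call lost without IR, and KLF9 by 0.57 ± 0.14, which was not called once any of the 4 arrays was removed (adjusted p up to 0.380 in limma). KLF14 was lowest at -0.19 and not called.

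Called genes of the ubiquitin system were mostly rises of single members of large lists. UBB, which encodes ubiquitin, rose by 1.74 as the 1 call of 8 ubiquitin and E1 genes, and the conjugating enzyme UBE2B by 1.51 as the 1 call of 22 E2 genes. Only the deubiquitinases and the Kelch and BTB adaptors met the rule for description. Of 54 deubiquitinases of the USP and OTU families, which remove ubiquitin from proteins, 5 rose and 0 fell, with a median of 0.01 that turned negative under both other scalings. OTUD1 read 4.90 and 5.15 at 37 °C and 6.33 and 6.19 at 44 °C. USP30, which sits on mitochondria and restrains their removal, rose by 0.93 ± 0.13 and CYLD, a brake on NF-kappaB, by 0.70 ± 0.11. USP50 rose by 1.02 from a low level of 2.81 and 2.53. USP35 was lowest at -0.48 and not called. All of these calls needed the control array, without which 0 of the 54 were called as rises, and 2 were without IR. Of 56 Kelch and BTB adaptors, which bring substrates to cullin ubiquitin ligases, 5 rose and 0 fell (median 0.03, negative under both other scalings). KLHL15 read 6.63 and 6.50, then 7.73 and 7.80, and stayed called without any 1 array. KBTBD2, KBTBD8 and KBTBD7 rose by 0.69, 0.68 and 0.62 but were lost without the control or IR, each of which left 1 rise in the list, and 2 rises were left without IR_HT 44. KBTBD3 differed by -0.50 and was not called.

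The integrated stress response, which slows translation and induces ATF4 targets, had 4 rises and 0 falls among 13 genes (median 0.16). DDIT3, a pro-apoptotic factor, read 5.26 in the control and 4.74 in IR, against 6.28 in HT 44 and 6.14 in IR_HT 44. EIF2AK3, the PERK kinase that senses stress in the endoplasmic reticulum, rose by 0.87 ± 0.10. Both calls held without any 1 array. SESN2, a regulator of growth signalling, and TRIB3, a pseudokinase induced by DDIT3, rose by 0.84 and 0.50, but 2 rises were left in the list without the control or without IR. The EIF2AK4 kinase was lowest at -0.18, and not called.

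The BCL2 family, which decides on mitochondrial cell death, had 4 rises and 0 falls among 19 genes, although its median was -0.01. The survival factor MCL1 read 7.55 and 7.47 at 37 °C and 8.68 and 8.79 at 44 °C. On the other side, the killer protein BIM, gene BCL2L11, read 5.43 and 5.15, then 6.49 and 6.68. BCL2L15 read 3.17 and 3.58, then 6.41 and 6.28. Both promoters and inhibitors of death were thus among the rises. PMAIP1, which encodes the killer protein NOXA, read 5.95 in the control and 6.62 in IR, then 7.09 and 7.29, a call lost without either 37 °C array (adjusted p up to 0.145 in limma). BCL2A1 differed by -0.34, which did not pass.

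Histone demethylases, which remove methyl groups from histone tails, had 6 rises and 2 falls among 26 genes (median 0.05). JMJD6, a hydroxylase also listed as an arginine demethylase, read 6.66 and 6.52 at 37 °C and 8.62 and 8.50 at 44 °C. KDM2A, which binds CpG islands, read 7.70 and 7.43, then 8.68 and 8.52, and KDM5A, which acts on active promoters, read 7.47 and 7.41, then 8.36 and 8.27. These calls held without any 1 array, and the groups were clear of each other. KDM7A rose by 0.75 ± 0.14, a call lost without the control, IR or IR_HT 44. The falls were the ribosomal oxygenases RIOX1 (-0.52) and RIOX2 (-0.38), nucleolar proteins of the same fold, and both were lost without the control or without IR. In the list as a whole 3 rises were left without IR, and 1 of the falls without HT 44 or IR_HT 44.

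Other nuclear regulators had fewer calls. Of 33 chromatin remodelling genes 3 rose, INO80D, ARID3B and BRD2, a reader of acetylated histones, by 0.58, 0.51 and 0.46, and CHD9 fell by 0.34. Without the control, IR or IR_HT 44 arrays 0 of these rises remained, and CHD9 was lost without the control, IR or HT 44. Of 82 zinc finger genes of the ZFP, ZSCAN, ZBTB and ZKSCAN groups, 6 rose and 1 fell (median 0.01, negative under both other scalings). ZBTB43 read 4.71 and 5.06 at 37 °C and 6.06 and 6.11 at 44 °C, and ZBTB45 fell by 0.61 ± 0.11. ZBTB21, ZBTB2 and ZBTB34 rose by 0.77, 0.70 and 0.58, and without the control or without IR 2 of the 6 rises were left, and 3 without IR_HT 44. The fall of ZBTB45 was lost without the control or IR. The far larger ZNF group had 14 rises and 16 falls among 471 genes.

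RNA processing had a few strong members. Of 24 SR splicing factors, which mark exons for splicing, 3 rose and 1 fell (median -0.02). RSRC2 read 7.73 and 7.70 at 37 °C and 8.91 and 9.07 at 44 °C. LUC7L, a partner of the U1 particle, moved the opposite way, from 7.63 and 7.49 to 6.80 and 6.86. SRSF12 rose by 0.70 ± 0.17 and TRA2B by 0.51 ± 0.10. Without IR or without IR_HT 44, 1 rise was left, and the fall of LUC7L was lost without the control (adjusted p = 0.0592 in limma). Of 35 importins, exportins and RNA export genes 3 rose and 0 fell (median -0.02). THOC6, a subunit of the complex that loads messenger RNA for export, read 7.52 and 7.03, then 8.64 and 8.56, and NXT2, an export cofactor, read 6.07 and 6.23, then 7.16 and 7.26. KPNA7, an importin, rose by 0.79 ± 0.14, a call lost without the control, IR or HT 44. After another quantile normalization 3 genes of the list rose and 4 fell, and after median centring 3 and 2. IPO8, which imports AGO proteins, was lowest at -0.37, and not called.

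The called genes of cytosolic ribosomal proteins were rises, and those of the factors that build ribosomes were mostly falls. Ribosomal protein genes had 11 rises and 0 falls among 54. Their median was 0.09, and 33 were positive in both pairs (61.1%, against 25.05% of all genes). FAU, which joins ribosomal protein eS30 to a ubiquitin-like domain, read 6.06 and 6.23 at 37 °C and 7.52 and 7.35 at 44 °C. RPL31 read 4.18 and 4.26, then 4.83 and 5.40, and RPL37A read 5.58 and 5.67, then 6.43 and 6.39. RPL32 read 5.42 in the control and 4.76 in IR, then 5.88 and 5.94, so that its pairs differed in size. RPL6 was lowest at -0.45 and not called. Many processed copies of these genes exist in the genome and can share probe signal. The count of rises was 3 without the control, 1 without IR, 6 without HT 44 and 7 without IR_HT 44, and FAU was the gene called in each of these fits.

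Of 38 ribosome biogenesis factors, which process ribosomal RNA in the nucleolus, 5 fell and 2 rose (median -0.10). WDR75, a subunit of the early processing complex, read 9.29 and 9.35 at 37 °C and 8.72 and 8.82 at 44 °C. The RNA methyltransferase NOP2 read 7.98 in both 37 °C arrays, then 7.41 and 7.55, and MYBBP1A read 7.78 and 7.66, then 7.17 in both. RRS1 fell by 0.45 ± 0.09. NOP58, a core protein of box C/D small nucleolar particles, moved the other way, from 9.93 and 9.81 to 10.67 and 10.56. NOP16 rose by 0.40. Without the control 0 falls were left, 1 without IR and 3 without IR_HT 44, and 1 rise was left without the control, IR or IR_HT 44.

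Of 47 tRNA modification enzymes 6 fell and 1 rose (median -0.11). TRMT2B and MTO1, enzymes of mitochondrial RNA, fell by 0.50 each, TRMT61B by 0.41 and TRMT5 by 0.40. The call of TRMT5 was lost when the features of a gene were averaged. Its highest difference over the alternative fits was -0.05. TRMT112, the shared activator of several methyltransferases, rose by 0.77 ± 0.10. Without any 1 of the 4 arrays 0 falls were called, so these calls rest on all of them, and TRMT112 was lost without the control. Mitochondrial ribosomal proteins, 74 in number, had 1 call, the rise of MRPL18 (0.78 ± 0.09), yet their median was -0.13 and 45 were negative in both pairs (60.8%, against 38.3% of all genes).

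**Figure D3:**
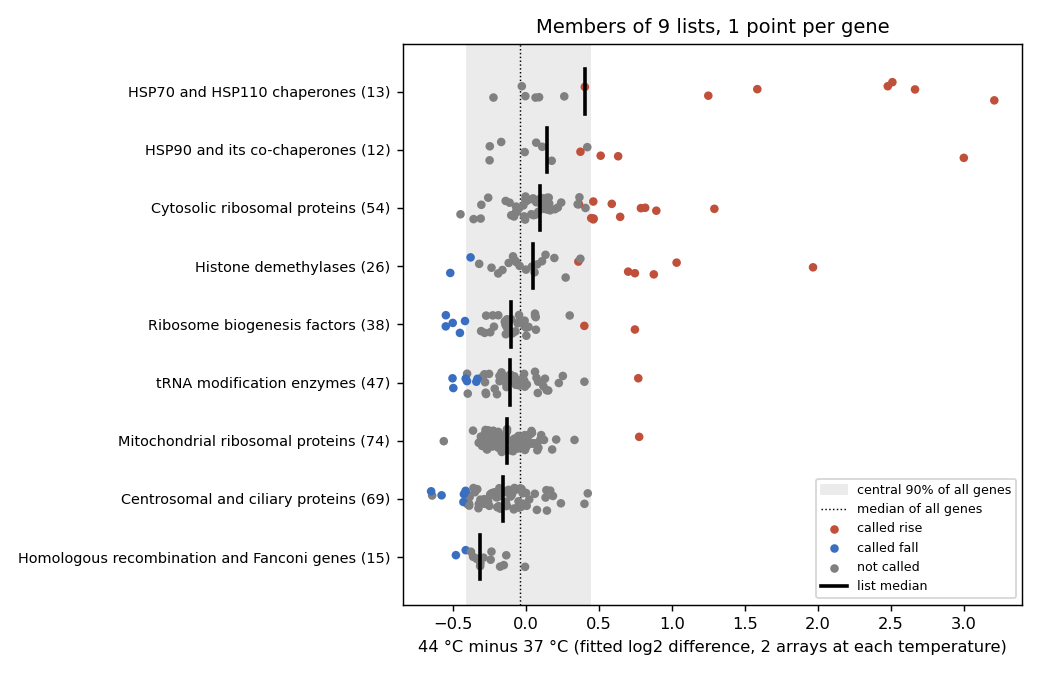
Each point is a member gene placed by its fitted log2 difference, red for called rises, blue for called falls and grey otherwise. The thick bar is the list median, the dotted line the median of all genes (-0.04) and the shaded band the central 90% of all genes (-0.40 to 0.44). The HSP70 and HSP110 list (median 0.40) and the HSP90 list (median 0.14) have members far to the right. The medians of the centrosomal (-0.16), mitochondrial ribosome (-0.13) and recombination (-0.31) lists lie left of the dotted line. Centrosomal members extend up to 0.42 and mitochondrial ribosome members up to 0.78.

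Centrosomal and ciliary proteins, which organise microtubules and the cilium, leaned downward as a group of small differences. Of 69 measured, 6 fell and 0 rose, the median was -0.16 and 45 were negative in both pairs (65.2%, against 38.3% of all genes). CEP290, a gatekeeper of the ciliary base, read 6.92 and 6.67 at 37 °C and 6.12 and 6.16 at 44 °C. CEP295 fell by 0.58 ± 0.14, OFD1 by 0.43 ± 0.10 and CEP152, which starts centriole duplication, by 0.43 ± 0.11. The pseudogene CEP192P1 was highest at 0.42, and not called. Without the control or without IR 0 falls were called, and 1 was without HT 44.

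Replication initiation genes of the G1/S transition had 3 falls and 2 rises among 29 (median -0.15). MCM10, which helps to fire replication origins, read 8.42 and 8.45 at 37 °C and 7.99 and 8.05 at 44 °C. The helicase subunits MCM3 and MCM6 fell by 0.31 and 0.30. Cyclin E1, gene CCNE1, which drives entry into S phase, went the other way, from 7.19 and 7.07 to 7.83 and 7.78, as did CDC6, which loads the helicase (0.48). Without the control or without IR 0 falls and 0 rises were called. None of the 3 falls held without HT 44, and 1 did without IR_HT 44. Of 31 listed homologous recombination and Fanconi genes only 15 were measured. Among these 15, 2 fell, below the minimum of the rule, but 14 were negative in both pairs (93.3%) and the median was -0.31. EXO1, a nuclease of break ends, read 8.04 and 8.18, then 7.67 and 7.73, and XRCC2, a recombination protein, fell by 0.48 ± 0.10. Neither call held without IR or without IR_HT 44, and only that of XRCC2 held without the control or HT 44. After another quantile normalization 5 of the 15 fell, and 0 without the intensity trend. BARD1 stood at -0.01.

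TGF-beta and BMP signalling genes had 6 rises and 1 fall among 29 (median 0.12). SNAI1, a repressor of epithelial genes, read 6.33 and 5.94 at 37 °C and 8.59 and 8.22 at 44 °C. The inhibitors SKIL and SMAD7, which damp the pathway, rose by 0.78 ± 0.11 and 0.70 ± 0.12, and the ligand BMP2 by 0.73 ± 0.18. The ubiquitin ligases SMURF2 and SMURF1, which degrade its receptors, rose by 0.47 and 0.34. TGIF1, a corepressor of SMAD proteins, fell by 0.57 ± 0.09. Apart from SNAI1 these calls leaned on single arrays: 2 rises were left without the control or IR_HT 44 and 1 without IR. The fall of TGIF1 was lost without the control or IR.

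Hypoxia-induced genes split, with 3 rises and 3 falls among 15 (median 0.08). ANKRD37 read 4.51 and 4.79 at 37 °C and 6.09 and 6.48 at 44 °C, and the vessel growth factor VEGFA rose by 0.61 ± 0.11. KDM3A, a demethylase, rose by 0.36. DDIT4, an inhibitor of mTOR signalling, fell from 8.99 and 8.91 to 8.30 and 8.27. The lipid regulators ANGPTL4 and HILPDA fell by 0.82 each. Without the control array 0 of the falls were called, and without IR or IR_HT 44 1 of the rises was. Cholesterol genes had 3 rises and 1 fall among 19 (median 0.02, negative under both other scalings). INSIG1, a brake on sterol synthesis, rose from 6.65 and 6.76 to 7.77 and 7.62. IDI1 and PMVK, enzymes of the pathway, rose by 0.65 and 0.51 and FDPS fell by 0.45, but 1 rise was left without the control, IR or IR_HT 44, and FDPS was lost without any 1 of the 4 arrays. Cadherins and protocadherins, which join cells, had 3 falls and 0 rises among 40 (median -0.06): PCDHB4 by 0.93 from low levels of 3.28 and 2.62, FAT4 and PCDH9 by 0.45 each. Without the control, IR or HT 44 arrays 0 of them were called. PCDHB14 was highest at 0.58, with its 37 °C arrays far apart (2.90 and 4.16), and not called.

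**Figure D4:**
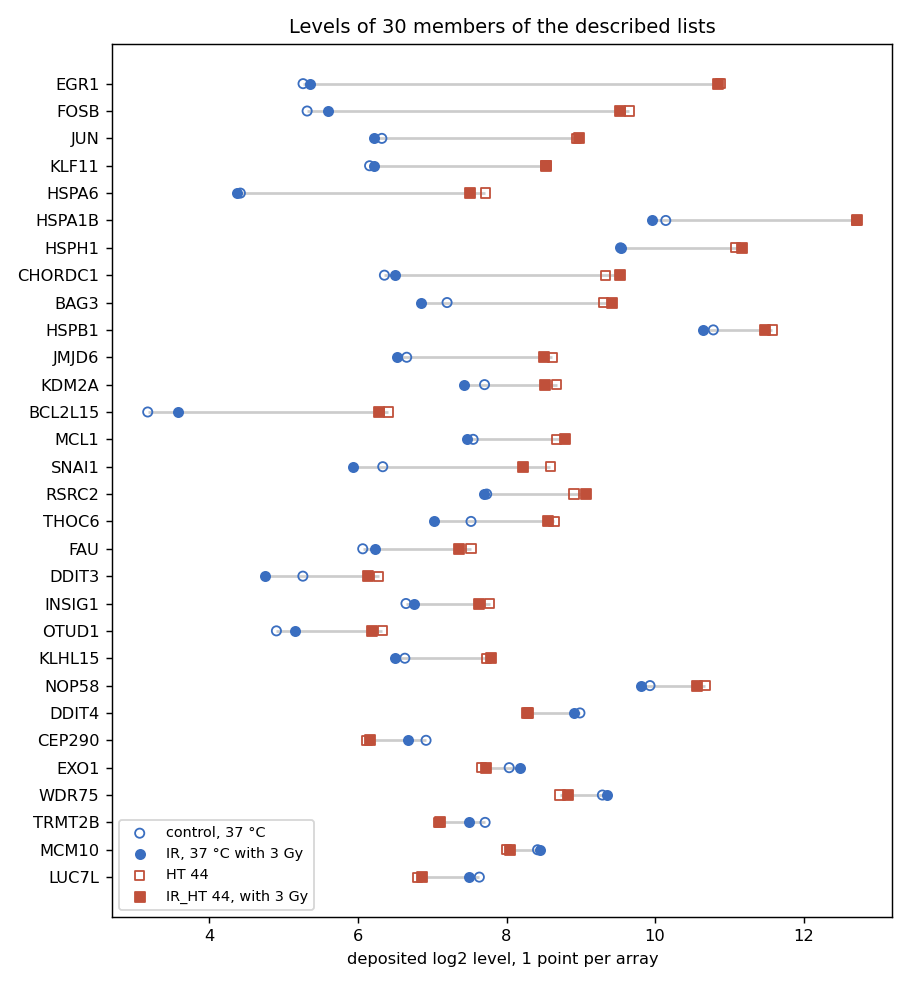
Each row is 1 gene and each point 1 array, on the deposited log2 scale. Open and filled circles are the control and IR arrays, and open and filled squares HT 44 and IR_HT 44. The 30 genes were picked from called members of the gene lists, among them BAG3, HSPB1 and EXO1 from lists below the rule. Their separation by temperature follows from that choice. In every row the squares lie apart from the circles, to the right for rises and to the left for the 7 genes at the bottom, from DDIT4 to LUC7L.

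MicroRNA genes stood out among the larger falls. They made up 7.20% of all genes but 36 of the 97 genes at least 1.5-fold lower in both pairs (37.1%), against 23 of 326 on the higher side (7.06%). Of 1072 microRNA genes 50 fell (4.66%, against 2.54% of all genes) and 29 rose (2.71%, against 3.57%), with a median of -0.06. Their median level was low, 3.59 against 5.39 over all genes. The falls were 9 without the control and 20 without IR, and the rises 12 without the control, 11 without IR and 19 without HT 44. MicroRNAs bind messenger RNAs through a seed at bases 2 to 8. The sequence of 1 mature form, from RefSeq (GRCh38.p14), is shown for each of the largest falls, with seeds in capitals. The let-7 genes, whose falls were smaller, are added because they share a seed.
miR-27b-3p: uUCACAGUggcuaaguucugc
miR-23b-3p: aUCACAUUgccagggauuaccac
miR-21-5p: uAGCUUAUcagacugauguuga
miR-548l: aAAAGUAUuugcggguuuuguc
miR-545-3p: uCAGCAAAcauuuauugugugc
let-7i-5p: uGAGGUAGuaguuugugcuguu
let-7a-5p: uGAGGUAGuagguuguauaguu

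MIR27B and MIR23B lie within 10 kb of each other on chromosome 9. MIR27B read 7.03 and 6.75 at 37 °C and 3.84 and 4.03 at 44 °C, and MIR23B read 7.01 and 6.45, then 5.00 and 5.16. Their neighbour MIR24-1 was near the floor of the scale in every array (1.94, 2.69, 1.97 and 2.02), and its difference of -0.32 did not pass. MIR21 read 8.04 and 7.81, then 5.91 and 5.47. Among the 45 falling microRNA genes with a mature sequence, 1 seed occurred in more than 1 gene: MIRLET7I and MIRLET7A3 of the let-7 family share GAGGUAG and fell by 0.79 and 0.51. Both calls were lost without the control or IR, and MIRLET7A3 also without either 44 °C array. On chromosome 12, MIR331 and its neighbour MIR3685 fell by 0.88 and 0.82. The call of MIR331 was lost without the control, IR or HT 44, and that of MIR3685 without the control, IR or IR_HT 44 (adjusted p up to 0.287 in limma). MIR421 fell by 1.34 and its neighbour MIR374B was at -0.77 and not called. A feature named for a microRNA gene cannot tell the mature form from its precursors.

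The MIR548 family, repeated copies of 1 transposon-derived hairpin, had 3 falls and 1 rise among 40 (median -0.11), and the pairs differed (-0.20 without radiation and 0.03 with it). MIR548L read 5.36 and 5.00 at 37 °C and 3.19 and 3.73 at 44 °C, MIR548V read 7.50 and 6.61, then 6.33 and 5.56, and MIR548O2 fell by 0.99. MIR548A2 rose by 1.35 ± 0.31, a call lost without the control, IR or IR_HT 44. Without the control 1 fall was called. Host genes, whose transcripts carry microRNAs or small nucleolar RNAs, had 3 rises and 1 fall among 37 (median -0.07). MIR7-3HG rose by 1.20 ± 0.14, SNHG10 by 0.59 and MIR4435-2HG by 0.42. MIR4453HG fell by 0.75, a call lost without the control, IR or HT 44. MIR181A2HG was lowest at -0.77, and not called, and 1 rise was left without IR or without IR_HT 44.

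Among other short noncoding RNAs, several made by RNA polymerase III were higher, a choice of genes made after their values were seen. Of 4 genes annotated as vault RNAs 2 rose. VTRNA1-3 read 6.25 and 5.92 at 37 °C and 8.76 in both 44 °C arrays, and VTRNA2-1 read 3.21 and 3.47, then 4.11 and 4.64. VTRNA1-1 read 5.43 and 5.17, then 5.60 and 6.84, so that its rise lay in 1 pair, and it was not called. Of 8 measured SNAR genes, short RNAs that bind a nuclear double-strand RNA protein, 5 rose. SNAR-H read 6.81 and 6.75, then 8.29 and 8.80, and SNAR-B1 read 10.46 and 9.82, then 11.14 and 11.54. SNAR-D, SNAR-C1 and SNAR-G2 rose by 1.15, 1.14 and 1.00, while SNAR-F differed by -0.06. SNAR copies are near identical and count as 1 measurement rather than several. RPPH1, the RNA of RNase P, rose by 0.39 ± 0.10, which was not called once any of the 4 arrays was removed (adjusted p up to 0.326 in limma). SNAR-C1 was lost without IR_HT 44 (adjusted p = 0.0501 in limma) and VTRNA2-1 without the control, IR or IR_HT 44.

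Beyond the lists, the genes at ranks 13 to 24 of the rises included HBEGF, a growth factor that binds EGFR, which read 4.74 and 4.84 at 37 °C and 7.33 and 7.16 at 44 °C. TSPYL2, a chromatin protein that restrains growth, read 7.15 and 7.18, then 9.47 and 9.69. BTK, a kinase best known from B cells, read 3.84 and 3.98, then 6.37 and 6.49. The long noncoding RNA LOC100128770 rose by 2.42 ± 0.25. All of these stayed called without any 1 array. Of ranks 11 to 22 of the falls, 8 were microRNA genes, and only the coding genes GPR135, ETAA1 and LURAP1L stayed called in every such fit. GPR135, an orphan receptor, read 7.65 and 7.24 at 37 °C and 6.07 and 6.28 at 44 °C. ETAA1, an activator of the ATR kinase at stalled forks, read 6.35 and 6.44, then 5.23 and 5.35, and LURAP1L read 7.53 and 7.58, then 6.53 and 6.41. The pseudogene AADACP1 and the microRNA genes MIR421, MIR924 and MIR548V were lost without the control, and MIR3189, MIR3126, MIR3942, MIR491 and MIR582 without the control or IR. MIR3189 read 5.62 in the control and 6.74 in IR, then 4.96 and 4.74, so that its fall was larger in the pair with radiation.

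Rises and falls also differed in gene size. The median genomic span, from start to end with introns, was 17.6 kb for the 438 coding rises, 32.9 kb for the 279 coding falls and 26.7 kb for all 11916 coding genes. In 5 groups of equal size, the share of rises went from 5.37% in the shortest genes to 1.51% in the longest. The share of falls went from 1.51% in the shortest to 3.44% in the group before the longest and was 1.97% in the longest. Among brighter coding genes the spans were 19.0, 35.5 and 30.1 kb in the same order. Short genes were also dimmer, with a median level of 5.23 against 5.92 in the longest, and calls were more frequent in brighter genes, so that the part of signal in this pattern was not tested beyond that split. The numbers of genes in each group are not independent replicates, and the pattern carries no test.

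**Figure D5:**
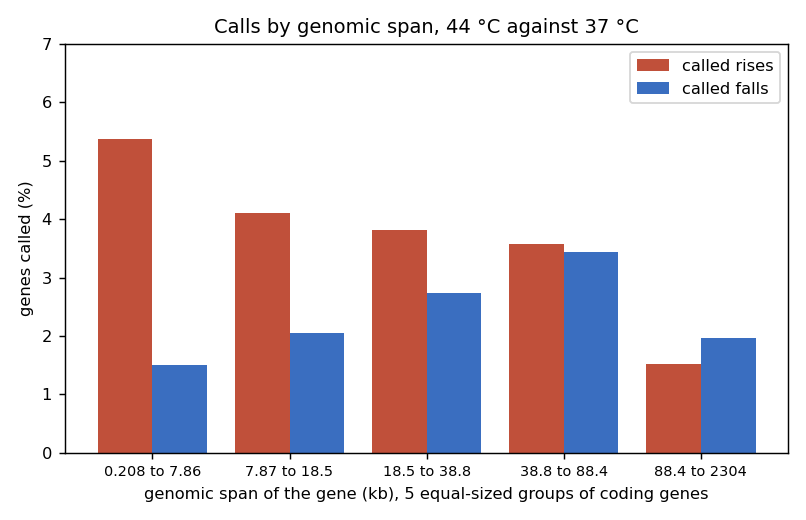
Coding genes were sorted by genomic span in kb into 5 groups of equal size, shown on the x axis, and bars give the percent called as rises (red) and falls (blue) in each. Rises decline from 5.37% to 1.51% along the groups, and falls increase up to 3.44% in the group from 38.8 to 88.4 kb.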

How the data were processed

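Total RNA of 6 A549 samples was measured on 1 Affymetrix array per group. The deposited log2 intensities had been background corrected, normalized and summarised by the authors with RMA in Affymetrix Expression Console 1.1, per the submitters' processing notes. RMA equalises the arrays' distributions, so a shift of most genes in 1 direction would be partly removed. Which genome build the probe design used was not given in the sources used here.

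Of 53617 features, 16098 had 1 gene symbol in the platform annotation and 37519 had several or none. The feature with the highest mean stood for each of the 779 genes with several, which gave 14884 genes. Among 59 called genes with several features, 13 had another feature of opposite sign.

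Differences were fitted with limma 3.58.1 in R 4.3.3 (temperature as a factor plus radiation, all 6 arrays, intensity-trended eBayes, 2 residual and 8.06 prior degrees of freedom), two-sided, with Benjamini-Hochberg adjustment over all genes. The median SE was 0.138, and the number of arrays limits the precision. The 2 residual degrees of freedom also hold any interaction of heat and radiation. The fit was tested on simulated data.

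Gene lists, and the genes compared, were chosen with earlier results of these data known. In each list described, the text names up to 4 called members with the largest differences and the member furthest the other way. Rises at ranks 13 to 24 and falls at ranks 11 to 22 come from the whole table, and the larger ones are not repeated. Tables were joined and motifs counted with Python 3.11.15 and pandas 2.3.3. Alternatives tried were other scalings, no intensity trend, 4 arrays, no radiation term, a filter on dim genes, the mean of a gene's features, and leaving out each array.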

Additional observations from a re-analysis of the deposited data

Results flagged for a closer look

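The lists of p53 targets and of mitotic regulators moved in opposite directions in the 2 pairs of arrays. The 14 measured p53 targets had a median difference of 0.183 without radiation (HT 44 and the control) and -0.174 with it (IR_HT 44 and IR). GDF15, a secreted stress factor, differed by 0.28 in the first pair and -0.84 in the other, and SESN1, a growth regulator, by -0.28 and -1.63; neither was called. The only called member, SESN2, was higher in both pairs (0.84 ± 0.21 in the fit), a call lost without the control, IR or HT 44. The 26 G2/M regulators went the other way, with -0.138 without radiation and 0.104 with it. HMMR, a spindle protein, differed by -0.11 and 0.51, and the mitotic kinase PLK1 by -0.18 and 0.28, without a call. WEE1, the kinase that holds cells before mitosis, was the single call and rose in both pairs (1.32 ± 0.15 in the fit). Each pair is 1 array against 1, and the difference between the pairs was not tested.

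Features without a single gene symbol, which enter no list, held a further signal: 1213 of 37519 were called as higher at 44 °C and 280 as lower, when limma was fitted to all 53617 features. They are not described by gene here.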

How the results depend on the processing

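With 1 array per group, every array carries weight. Leaving out 1 of the 6 arrays in turn gave between 210 and 661 rises and between 30 and 551 falls, against 532 and 378 with all. Another quantile normalization gave 599 falls, and eBayes without the intensity trend 311 rises and 94 falls. The other counts lay within 1.5 times those reported: 467 rises and 538 falls with median centring, 659 and 542 with only the 4 arrays, 551 and 386 without the radiation term, 462 and 459 of the 7442 brighter genes, and 552 and 386 with the mean of a gene's features. Falls of small size moved most. Without the intensity trend 0 falls were called among G1/S, centrosomal, ribosome biogenesis, tRNA modification and cadherin genes, 27 among microRNA genes, and 2 rises among cytosolic ribosomal proteins. After another quantile normalization 8 ribosome biogenesis, 4 mitochondrial ribosomal and 3 chromatin remodelling genes fell, and 1 each of the HSP90, deubiquitinase and cytosolic ribosomal lists. At 2-fold in both pairs, 132 genes were higher and 17 lower. Of 123 called genes named by the rules for lists and ranks, 43 (39 rises and 4 falls) held with any 1 of the 6 arrays left out. Under these settings 0 of the 123 changed direction. Genes named outside those rules, such as UBB, MIR27B and PARP1, are not in this count. With the mean of a gene's features, the calls of TRMT5, PCDH9, FDPS and INO80D were lost. No paired analysis was possible because each group is 1 array; the radiation term stands for the pairing by dose. Dim genes have the larger errors, so their small differences could not be told from the spread.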

Other observations

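Several lists below the rule leaned downward through small differences. Over all genes 38.3% were negative in both pairs and 2.54% were called falls. Of 25 genes of mRNA decay and deadenylation, 2 fell (8.0%) and 0 rose. Their median was -0.17 and 17 were negative in both pairs (68.0%). DCP1B, a decapping subunit, read 5.60 and 5.93 at 37 °C and 4.96 and 5.13 at 44 °C, and the exosome subunit EXOSC7 fell by 0.50 ± 0.11. Of 17 base excision and single-strand break repair genes 1 fell (5.88%) and 10 were negative in both pairs (58.8%). The fall was PARP1, which senses broken strands (by 0.40 ± 0.08). The checkpoint kinase ATR fell by 0.37 ± 0.09 and its partner ATRIP by 0.62 ± 0.13. They were the 2 calls among 19 genes of end joining and damage checkpoints (10.5%). Of 10 genes of the tricarboxylic acid cycle, DLD and PDHB, parts of the pyruvate dehydrogenase complex, fell by 0.41 and 0.33. Every one of these 7 calls was lost without the control or without IR (adjusted p up to 0.328 in limma), and those of PARP1, ATR, DLD and PDHB also without either 44 °C array. All of these lists kept a negative median under both other scalings. Those scalings also lowered the median of all genes, from -0.04 to -0.07 and -0.09. The kept sign was therefore likely from the start and adds little.

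Further single rises lay in lists with few calls. Of 14 dual specificity MAP kinase phosphatases, which switch off stress kinases, 2 rose: DUSP10 read 5.89 and 5.74 at 37 °C and 6.61 and 6.72 at 44 °C, and DUSP8 read 4.87 and 4.84, then 5.89 and 5.73. The forkhead gene FOXD1 read 5.54 and 5.28, then 6.64 and 6.95, and FOXO3, which promotes stress resistance, rose by 0.70 ± 0.13, among 3 rises and 1 fall of 65 SOX, FOX and GATA genes. MAP1LC3B, which coats autophagosomes, read 4.61 and 4.67, then 5.91 and 5.66. FOXD1 stayed called without any 1 array, whereas DUSP10 was lost without IR, DUSP8 without the control or IR, FOXO3 without the control, IR or HT 44, and MAP1LC3B without the control (adjusted p up to 0.156 in limma). In limma, 0 of 42 kinesins, 47 keratins, 27 HOX genes, 39 receptor tyrosine kinases and 18 aminoacyl-tRNA synthetases were called. At an unadjusted p under 0.05 in limma these lists held 6, 4, 4, 4 and 8 genes, beside 3054 of all 14884 genes.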
